A study of Mus musculus with 2 samples.

Results

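The regions described here are 385 distal sites of open chromatin with a high peak value, in the ovary of mice at 36 days of age. They were selected from 51370 peaks that were shared by both libraries and had a centre over 1 kb from every transcription start site (TSS) in GENCODE, so they make up 0.749% of the shared distal peaks. The selection used measured values: the deposited peak value had to be 5 or more, and the peak narrower than 600 bp, in each library. The value, the width and the distance from a start are therefore properties of the selection, and they are given as descriptions. All other measures that come from the same reads, footprints and q-values among them, are also descriptions with no test. DNase-seq was performed on whole ovary from 2 female mice of the F1 hybrid strain B6CASTF1/J at 36 days of age, with no treatment and no other group. Each library came from 1 animal, called replicate 1 and replicate 2 here, and the labels name no cell sorting. In whole tissue, a site that is open in more cells and a site that is cut more often in each cell cannot be told apart.

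The labelled tissue was checked by peaks within 500 bp of the start sites of marker genes. All 6 granulosa markers (Foxl2, Fshr, Amh, Amhr2, Inha and Inhba), all 3 markers of gonadal somatic cells (Nr5a1, Gata4 and Wt1) and all 3 theca markers (Cyp17a1, Cyp11a1 and Star) had such a peak in both libraries. Of 4 oocyte markers only Gdf9 did, and Bmp15, Zp3 and Ddx4 had none in either library. The longer peak lists, which were used throughout, held 109169 peaks in replicate 1 and 114462 in replicate 2, of which 79447 formed one-to-one pairs.

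DNase I cuts DNA that is not wrapped around nucleosomes, so a dense run of cuts marks open chromatin. A footprint is a short stretch within such a run that is cut less than its surroundings, as happens where a protein covers the DNA. The strongest sites in most tissues lie at promoters, where SP/KLF factors, NRF1, CREB-family factors and ETS factors bind CpG-rich DNA. Away from promoters, CTCF holds open the sites that anchor chromatin loops, and cell-type factors open enhancers. In the ovary these include NR5A receptors, GATA4 and the forkhead factor FOXL2. A tRNA gene carries its own promoter inside the transcribed sequence, the A box and the B box, where TFIIIC binds and brings in RNA polymerase III.

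The sequences of a few members show the kinds of site that make up the set. All are given on mm10, on the plus strand, from the RefSeq assembly of that build, and they were chosen with the values known. The first lines are 4 of the highest members, and the capitals in them mark the bases that another of the members matched at 97.2% identity or more.
Intergenic site of chromosome 3, chr3:5860361-5860530: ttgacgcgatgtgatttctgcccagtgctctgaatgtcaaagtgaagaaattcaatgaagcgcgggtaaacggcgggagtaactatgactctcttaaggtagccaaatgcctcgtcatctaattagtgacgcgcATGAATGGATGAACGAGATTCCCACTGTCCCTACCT
Il31ra intron, chr13:112578161-112578320: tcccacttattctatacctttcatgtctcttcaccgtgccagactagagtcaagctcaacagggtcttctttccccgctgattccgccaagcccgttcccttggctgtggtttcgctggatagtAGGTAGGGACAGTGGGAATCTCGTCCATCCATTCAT
Intergenic site near Igf2bp3, chr6:49236421-49236620: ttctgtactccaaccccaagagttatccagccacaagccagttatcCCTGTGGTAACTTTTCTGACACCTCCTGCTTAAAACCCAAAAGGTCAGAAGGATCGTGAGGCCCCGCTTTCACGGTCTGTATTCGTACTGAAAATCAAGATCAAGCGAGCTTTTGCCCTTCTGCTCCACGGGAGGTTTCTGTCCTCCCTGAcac
Gphn intron, chr12:78350861-78351100: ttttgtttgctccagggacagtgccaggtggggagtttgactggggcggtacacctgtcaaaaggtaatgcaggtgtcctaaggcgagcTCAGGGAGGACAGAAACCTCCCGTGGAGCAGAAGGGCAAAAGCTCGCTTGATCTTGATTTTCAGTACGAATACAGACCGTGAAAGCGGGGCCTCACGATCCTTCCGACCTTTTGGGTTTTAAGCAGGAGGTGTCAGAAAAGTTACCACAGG
The chromosome 6 and chromosome 12 intervals shared 151 bp at 99.3% identity, on opposite strands. The chromosome 3 and chromosome 13 intervals shared 36 bp at 97.2% identity, also on opposite strands. As background, these stretches read as parts of the gene for 28S ribosomal RNA, the large RNA of the ribosome, whose genes stand in long tandem arrays. No 28S reference was used here, so this naming rests on general knowledge of a strongly conserved sequence.

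The next lines are CpG-rich members and CTCF members, each among the highest of its motif up to 300 bp wide with no copy elsewhere, except the Fosb site. Capitals mark the CTCF consensus in the first pair, the NRF1 consensus in the third line and the CRE letters TGACGTCA in the next pair. In the Fosb line, shown for the immediate early genes, they mark an SP/KLF match, GGGCGG, and an RFX match.
CTCF site near Chd2, chr7:73618401-73618660: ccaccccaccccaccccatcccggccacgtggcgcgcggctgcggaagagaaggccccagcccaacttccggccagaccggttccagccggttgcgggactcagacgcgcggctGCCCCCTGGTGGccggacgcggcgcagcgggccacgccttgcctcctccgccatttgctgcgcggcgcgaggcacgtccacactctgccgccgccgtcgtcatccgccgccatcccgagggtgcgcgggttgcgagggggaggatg
CTCF site near Ptma, chr1:86525281-86525520: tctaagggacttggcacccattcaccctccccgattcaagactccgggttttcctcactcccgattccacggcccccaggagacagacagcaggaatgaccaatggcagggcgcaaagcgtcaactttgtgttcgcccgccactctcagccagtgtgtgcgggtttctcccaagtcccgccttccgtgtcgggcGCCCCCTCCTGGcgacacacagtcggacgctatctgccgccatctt
NRF1 site near Zfp239, chr6:117879441-117879700: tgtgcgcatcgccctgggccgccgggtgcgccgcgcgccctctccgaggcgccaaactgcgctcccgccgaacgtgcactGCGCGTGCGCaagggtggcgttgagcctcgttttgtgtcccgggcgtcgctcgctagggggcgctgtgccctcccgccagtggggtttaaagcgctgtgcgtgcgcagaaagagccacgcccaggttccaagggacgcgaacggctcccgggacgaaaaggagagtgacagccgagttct
CRE site in A430078I02Rik, chr6:86472201-86472480: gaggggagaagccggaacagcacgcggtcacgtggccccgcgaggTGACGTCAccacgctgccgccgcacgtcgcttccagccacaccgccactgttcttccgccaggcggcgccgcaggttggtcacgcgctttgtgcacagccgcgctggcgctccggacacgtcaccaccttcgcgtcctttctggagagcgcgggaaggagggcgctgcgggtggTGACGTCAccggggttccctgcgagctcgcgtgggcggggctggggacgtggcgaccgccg
CRE site in the Mxi1 intron, chr19:53314221-53314460: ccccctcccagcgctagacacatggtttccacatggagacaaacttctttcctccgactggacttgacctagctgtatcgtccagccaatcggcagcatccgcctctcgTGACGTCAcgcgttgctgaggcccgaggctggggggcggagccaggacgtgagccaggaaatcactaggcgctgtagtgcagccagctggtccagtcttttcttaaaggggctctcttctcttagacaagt
Site near Fosb, chr7:19320041-19320260: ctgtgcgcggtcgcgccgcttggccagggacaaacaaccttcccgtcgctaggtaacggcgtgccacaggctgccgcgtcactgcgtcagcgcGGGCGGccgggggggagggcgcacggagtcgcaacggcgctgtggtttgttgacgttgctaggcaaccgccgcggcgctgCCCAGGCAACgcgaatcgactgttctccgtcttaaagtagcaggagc
The last pair are members that contain a tRNA gene, which is in capitals from its annotated start to its end.
tRNA-Arg gene n-TRccg1, chr11:107012661-107012940: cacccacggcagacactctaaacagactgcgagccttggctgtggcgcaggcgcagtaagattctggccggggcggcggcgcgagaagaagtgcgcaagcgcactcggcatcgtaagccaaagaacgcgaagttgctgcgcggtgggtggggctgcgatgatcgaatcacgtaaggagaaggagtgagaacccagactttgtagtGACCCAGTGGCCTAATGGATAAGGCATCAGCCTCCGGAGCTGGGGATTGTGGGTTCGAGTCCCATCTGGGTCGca
tRNA-Thr gene n-TTcgt5, chr16:13437161-13437420: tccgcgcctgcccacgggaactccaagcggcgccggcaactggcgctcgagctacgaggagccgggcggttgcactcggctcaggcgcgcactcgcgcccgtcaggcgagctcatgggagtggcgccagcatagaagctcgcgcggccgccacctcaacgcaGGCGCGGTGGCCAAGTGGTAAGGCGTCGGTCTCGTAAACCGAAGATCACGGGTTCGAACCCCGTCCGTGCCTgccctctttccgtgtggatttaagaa

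In replicate 1 the peak value of the 385 sites had a lowest value of 5.52, a median of 10.6 and a highest of 53.1. In replicate 2 the lowest was 5.01, the median 5.99 and the highest 45. The medians of the 50985 other shared distal peaks were 0.847 in replicate 1 and 0.726 in replicate 2. Replicate 2 was thus the library that decided membership: it had the lower value at 374 of the 385 sites. The median log2 ratio of replicate 2 over replicate 1 was -0.78 (SD over sites 0.33), against -0.29 (SD 0.46) at the other shared distal peaks. With replicate 1 alone the same limits admitted 1570 distal peaks, and with replicate 2 alone 399. All values were within 0.05 of a whole multiple of 1 step in each library, and a value of 5 was 768 steps in replicate 1 and 764 in replicate 2. The sources used here do not give what 1 step stands for.

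The lower of the 2 values of a site was mostly near the limit. Of the 385 sites, 21 had a value of 10 or more in both libraries and 6 had 20 or more in both. The members just inside the limit included a site 23.0 kb from the nearest coding TSS, that of Commd7, with 8.81 in replicate 1 and 5.0061 in replicate 2. Just outside it stood an intronic peak 14 kb from the Klrb1c TSS, with 8.69 and 4.9996, a peak 10.1 kb from the Prcd TSS, with 7.45 and 4.9996, and one 2.17 kb from the Hif3a TSS, with 10.4 and 4.9931. The 3 members with the lowest mean value lay near Krt8 (5.69 in replicate 1 and 5.06 in replicate 2), near Hist1h4h (5.52 and 5.29) and in a Phc2 intron (5.70 and 5.23). A single shared distal peak met the value limit but was too wide. It lay near Ppp2r3d and was 340 bp wide in replicate 1 and 700 bp wide in replicate 2.

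**Figure D1:**
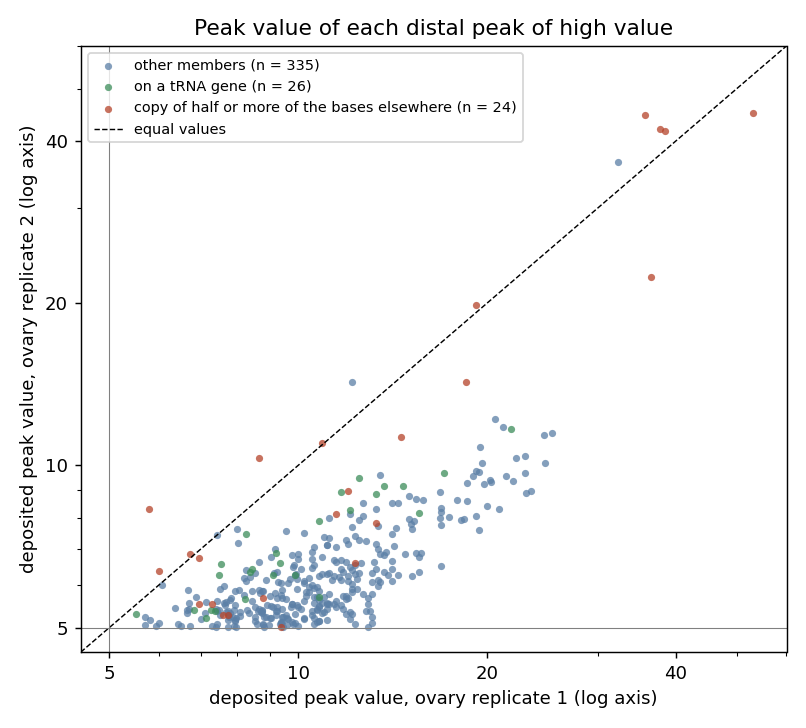
Deposited peak value of each of the 385 sites in ovary replicate 1 (horizontal, log axis) and replicate 2 (vertical, log axis), with grey lines at the limit of 5 and a dashed line at equal values. The 24 sites with a copy elsewhere include 4 of the 5 highest, most of the sites lie below the dashed line, and 9 of the 11 at or above it have a copy.

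The very highest sites were mostly stretches with copies elsewhere in the genome. Of the 5 members with the highest mean value 4 had a copy of 50% or more of their bases elsewhere in the assembly, and of the 8 highest 6 did, but of the 20 highest only 7 did. The highest of all lay in a UTR exon of Lars2, the mitochondrial leucyl-tRNA synthetase, at chr9:123461901-123462120, with 53.1 in replicate 1 and 45 in replicate 2. The intergenic site of chromosome 3 had 35.7 and 44.7, the Il31ra intron 38.4 and 41.8, and the site near Igf2bp3 37.7 and 42.1. In these 3 replicate 2 was the higher library, the reverse of the order at most members.

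The other highest sites were of several kinds. The site at chr15:99735661-99736060, in a UTR exon of the ceramide synthase gene Cers5, had 32.3 in replicate 1 and 36.6 in replicate 2, a GC content of 48.8% and no copy elsewhere. It had 2 footprints in each library, of which 1 was seen in both. An intron of Mid1, a ubiquitin ligase gene close to the pseudoautosomal boundary of the mouse X chromosome, held a site with 36.5 and 22.4 at chrX:169997941-169998420 that had a copy at 100% identity on chromosome Y. The Gphn intron site had 19.2 and 19.8, and the site in the noncoding gene A430078I02Rik, the eighth, had 25.4 and 11.5. The site that took its place once sequence in 10 or more other places was left out lay 39.1 kb upstream of Ptma, which codes for the chromatin-associated protein prothymosin alpha. It had 24.6 in replicate 1 and 11.4 in replicate 2.

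Across all members, 17 (4.42%) had at least 1 other place in the assembly with 90% identity over 80% of their length, and 2 (0.519%) had 10 or more such places. In a sample of every 50th other shared distal peak, 27 of 1020 (2.65%) had at least 1 and 8 (0.784%) had 10 or more. The site of chromosome 3 had 15 other places, and an intergenic site at chrX:170020061-170020240 had 16 on chromosomes X and Y. By the looser rule of 50% of the bases matched in stretches of 50 bp or more, 24 members had a copy and 361 had none. All of the 17 were among the 24. The looser rule was applied to members only, so it has no background share at the other distal peaks. These are counts of places in the assembly and not of copies in the animals.

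Several members shared a stretch of sequence with another member, in some pairs a short one. Outside tRNA genes, 14 members matched another member at 90% identity or more over at least 30 bp, in 10 pairs. The Lars2 site matched the site near Igf2bp3 over 79 bp at 98.7% identity and the Gphn site over 62 bp at 96.8%. A site near Hic2, with 11.5 in replicate 1 and 8.13 in replicate 2, matched the Gphn site over 125 bp at 96.8%. A site in a Jarid2 intron, with 18.5 and 14.3, matched a site near Rnf219, with 6.01 and 6.37, over 91 bp at 95.6%. A site near Cdh20, with 10.9 and 11, matched one near Myl12b, with 8.67 and 10.3, over 159 bp at 95%. Members that shared such a stretch thus differed in value by up to several fold within a library.

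The library ratio differed between members with and without a copy, and these groups also differed in GC content. The 24 members with a copy had a median log2 ratio of -0.35, against -0.80 in the 361 without one, and a median GC content of 53.0% against 60.5%. The 11 members where replicate 2 was at or above replicate 1 had a median GC content of 48.3%. Of these, 9 had a copy, and the other two were the Cers5 site and a site in a UTR exon of Ubqln1. The 24 had medians of 11.2 in replicate 1 and 8.21 in replicate 2, and the 361 had 10.6 and 5.90. One member lay on chromosome Y although both animals were female. It had 13.3 in replicate 1 and 7.81 in replicate 2, and 4 other places, on chromosomes 7, X and Y. No member matched the mitochondrial genome. The parts that repeated sequence and base composition have in these values were not tested.

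The members were rich in G and C and in CpG. Their GC content had a median of 60.4%, a lower quartile of 55.8% and an upper quartile of 65.5%. The other shared distal peaks had a median of 52.8%. It was 47.1% in 662 windows 2 kb to each side of the members, kept only where they touched no peak of either library. The ratio of observed to expected CpG, which is low in most of the mouse genome, had a median of 0.612 in members, 0.248 in the other shared distal peaks and 0.187 in the windows beside them. A GC content of 50% or more together with a CpG ratio of 0.6 or more was met by 191 members (49.6%) and by 2859 other distal peaks (5.61%). Bases that the assembly gives in lower case (soft-masked) made up a mean of 4.80% of a member and 9.51% of another distal peak. The kinds of sequence so marked were not told apart.

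Composition followed the value below the limit too. When all shared distal peaks narrower than 600 bp were binned by the lower of their 2 values, the median GC content was 51.7% in 15623 sites under 0.5, 53.5% in 10529 sites with 1 to 2, and 57.2% in 410 sites with 4 to 5. It was 60% in the 304 members with 5 to 7.5 and 63.3% in the 81 members with 7.5 or more. The median CpG ratio took the values 0.230, 0.256, 0.445, 0.583 and 0.769 in the same bins. Members thus stood at the end of a gradual shift, with no step at the limit of 5.

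The share with a CTCF consensus took another course. It was 7.64% under 0.5, 23.1% at 1 to 2, 32.6% at 2 to 3, 32.8% at 3 to 4 and 31.5% at 4 to 5. Among members it was 21.7% at 5 to 7.5 and 9.88% at 7.5 or more. CTCF letters were thus most frequent just below the members and less frequent at the top. The SP/KLF letters GGGCGG were in 32.9% of sites at 4 to 5, in 39.8% of members at 5 to 7.5 and in 59.3% at 7.5 or more. The NRF1 consensus had 4.39%, 6.58% and 18.5% in the same 3 bins, and the CRE letters 1.95%, 1.32% and 9.88%. The letters of the NR5A site, CAAGGNCA, were in 18.1% of sites at 0.5 to 1, in 9.27% at 4 to 5 and in 7.41% of members at 7.5 or more.

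**Figure D2:**
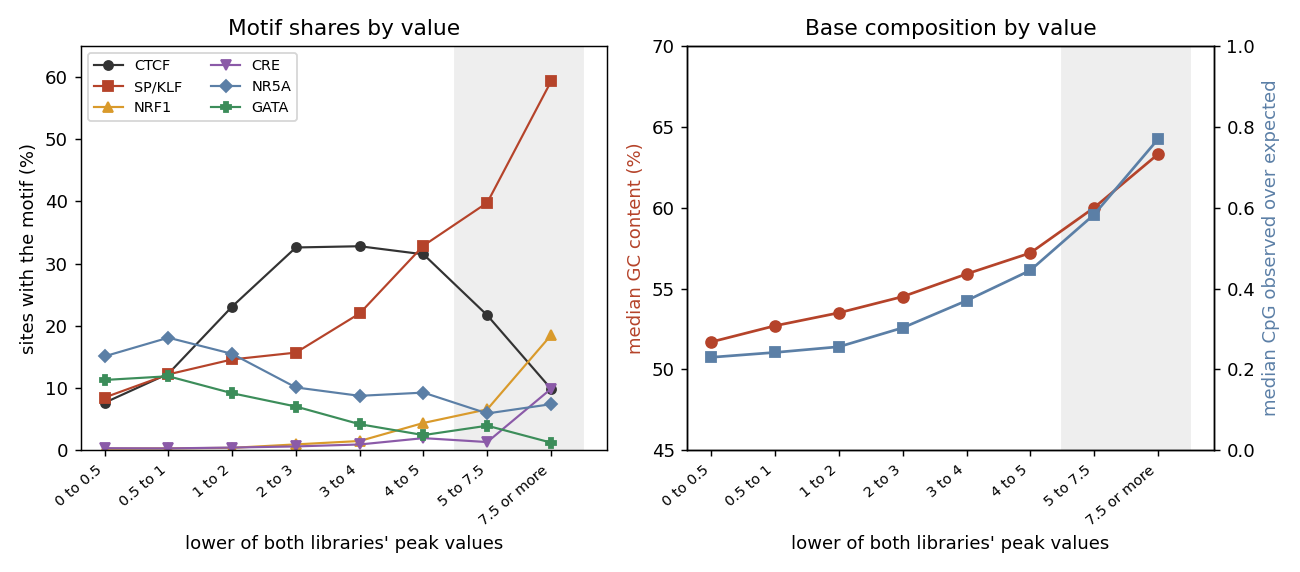
All shared distal peaks narrower than 600 bp, in bins of the lower of their 2 deposited values, with the members in the shaded bins. The left panel gives the percentage of sites with each motif and the right panel the median GC content (circles, left axis) and the median CpG ratio (squares, right axis); the CTCF share reached 32.8% at 3 to 4 and was 9.88% at 7.5 or more, where SP/KLF had 59.3%.

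A table of 24 consensus motifs was searched on both strands of each interval, the union of both libraries' peaks. Matches to it are descriptions of letters and not of bound factors. SP/KLF letters were in 169 members (43.9%), against 12.6% of the other shared distal peaks and 4.38% of the windows beside the members. The CTCF consensus was in 74 members (19.2%), against a background of 14.8% of the other distal peaks and 1.66% of the windows. The NRF1 consensus was in 35 members (9.09%), 0.416% of the other distal peaks and none of the 662 windows. CRE letters were in 12 members (3.12%) against 0.402% of the others, the ETS letters CCGGAAGT in 13 (3.38%) against 0.449%, and the E-box CACGTG in 46 (11.9%) against 5.16%. The RFX consensus was in 21 members (5.45%) against 1.83%. The SP/KLF, NRF1, CRE, ETS and CACGTG letters all contain CpG, and the GC content of members with SP/KLF letters had a median of 65.3%. The part that base composition has in these shares was not tested.

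NR5A, GATA and SOX letters were less frequent in members. NR5A letters, bound by NR5A1 and NR5A2 at steroidogenic genes, were in 24 members (6.23%), against 16.1% of the other distal peaks. The GATA letters AGATAA were in 13 (3.38%) against 10.9%, and the SOX letters AACAATG in 2 (0.519%) against 3.15%. The forkhead letters TGTTTAC had similar shares, with 15 members (3.90%) against 3.62% of the others, as had the AP-1 letters TGANTCA, with 33 (8.57%) against 9.55%. None of these letters contains CpG. No motif of the table was found in 56 members.

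**Figure D3:**
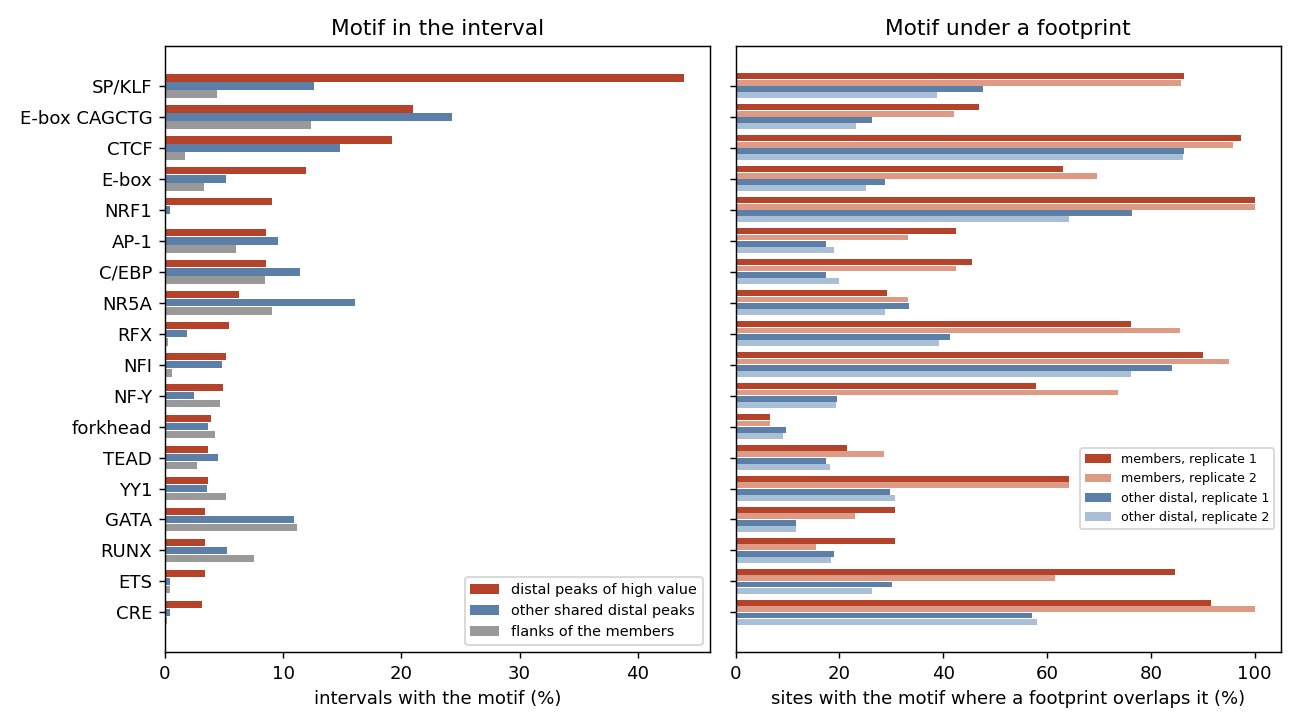
Percentage of members, other shared distal peaks and windows beside the members with each motif found in 10 members or more (left), and percentage of the sites with the motif where a deposited footprint overlapped it, by library (right). In the left panel, SP/KLF, NRF1, CRE, ETS and E-box CACGTG bars are longer in members, and NR5A and GATA bars are longer in the other distal peaks. All members with the NRF1 consensus had a match under a footprint.

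Most members with a CTCF, NRF1, SP/KLF or CRE match had a deposited footprint on it. A site was counted if a footprint overlapped any of its matches by 1 bp or more. Footprints covered 41.5% of the bases of members in replicate 1 and 39.2% in replicate 2, against 13.4% and 11.9% in the other distal peaks. Nothing is therefore read from the differences between members and the others in these percentages. Among the 74 members with a CTCF consensus, a footprint overlapped it in 72 (97.3%) in replicate 1 and in 71 (95.9%) in replicate 2. At the other distal peaks with the consensus the percentages were 86.4% and 86.3%. Footprints over the CTCF match had a median width of 32.0 bp in both libraries, and the matches lay a median of 19.0 bp from the centre of the interval. All 35 NRF1 members had a footprint on a match in both libraries, against 76.4% in replicate 1 and 64.2% in replicate 2 of the other distal peaks with the consensus. SP/KLF letters were under a footprint in 146 of 169 members (86.4%) in replicate 1 and 145 (85.8%) in replicate 2. At the other distal peaks with them the percentages were 47.7% and 38.8%. CRE letters were in 11 of 12 in replicate 1 and 12 of 12 in replicate 2, against 57.1% and 58.0%. NR5A letters were under a footprint in 7 of 24 members (29.2%) in replicate 1 and 8 (33.3%) in replicate 2. The other distal peaks had similar percentages, 33.4% and 28.7%. Forkhead letters were under one in 1 of 15 members (6.67%) in each library, against 9.76% and 9.16%.

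CTCF members differed in composition from the rest of the set. The 74 members with the consensus had a median GC content of 58.6% and a CpG ratio of 0.426, against 61.4% and 0.653 in the 311 without it. Their median values were 9.32 in replicate 1 and 5.71 in replicate 2, against 10.8 and 6.09. SP/KLF letters were in 23.0% of the CTCF members and in 48.9% of the others. The highest CTCF member lay 76.7 kb from the TSS of the chromatin remodeller gene Chd2, with 22.0 in replicate 1 and 9.35 in replicate 2. The next lay 14.3 kb from Ccne1, the cyclin E1 gene, with 21.4 and 9.57, and the one after 1.33 kb upstream of Ptma, with 19.2 and 9.78. The fourth lay in a coding exon of Spi1, which codes for the myeloid factor PU.1, with 15 and 8.76.

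Every member held at least 2 footprints in each library. A footprint in both libraries was present in all 385 members, against a background of 82.9% of the other shared distal peaks. Because footprints are called from the same cuts that give the value, nothing is read from this difference. Members held a mean of 4.82 footprints in replicate 1 (SD over sites 1.71) and 4.92 in replicate 2 (SD 2.00), against 2.50 (SD 1.65) and 2.37 (SD 1.68) in the other distal peaks. They covered 41.5% of the bases of the members in replicate 1 and 39.2% in replicate 2, against 13.4% and 11.9% in the others. Of the 1855 footprints of replicate 1 in members, 1559 (84.0%) overlapped one of replicate 2, against 49.2% at the other distal peaks. Footprints in members were also wider, with medians of 19.0 bp and 17.0 bp against 10 bp and 9 bp.

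The members with the most footprints seen in both libraries were wide, GC-rich sites. The Mid1 intron site of 36.5 and 22.4 held 12 footprints in replicate 1 and 13 in replicate 2 within 480 bp, with a GC content of 73.8%. A site 2.46 kb from the TSS of the potassium channel gene Kcnn1, at chr8:70865481-70865960, held 10 in each library, with values of 15.4 and 8.66. A second Mid1 intron site, at chrX:169991141-169991520, also held 10 in each, with 14.6 and 11.3. It matched the first over 223 bp at 98.7% identity. The fewest seen in both libraries was 1, in 4 members. No member was without a footprint in either library.

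The per-base q-values were strongest around the centre. The highest -log10 q within 1 kb of the centre had a median of 73.2 in replicate 1 and 54.4 in replicate 2, against 5.12 and 5.44 in every 50th other distal peak. At 100 bp from the centre the medians over members were 42.1 and 31.9, and at 200 bp 8.33 and 8.29, against 0 in the other distal peaks at 200 bp. At 500 bp no q-value was listed for the median member in either library. The stretch of listed q-values around the centre had a median of 749 bp in replicate 1 and 852 bp in replicate 2, and at its widest it filled the window of 1 kb to each side that was examined. The selection itself had set a limit on the peak width.

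**Figure D4:**
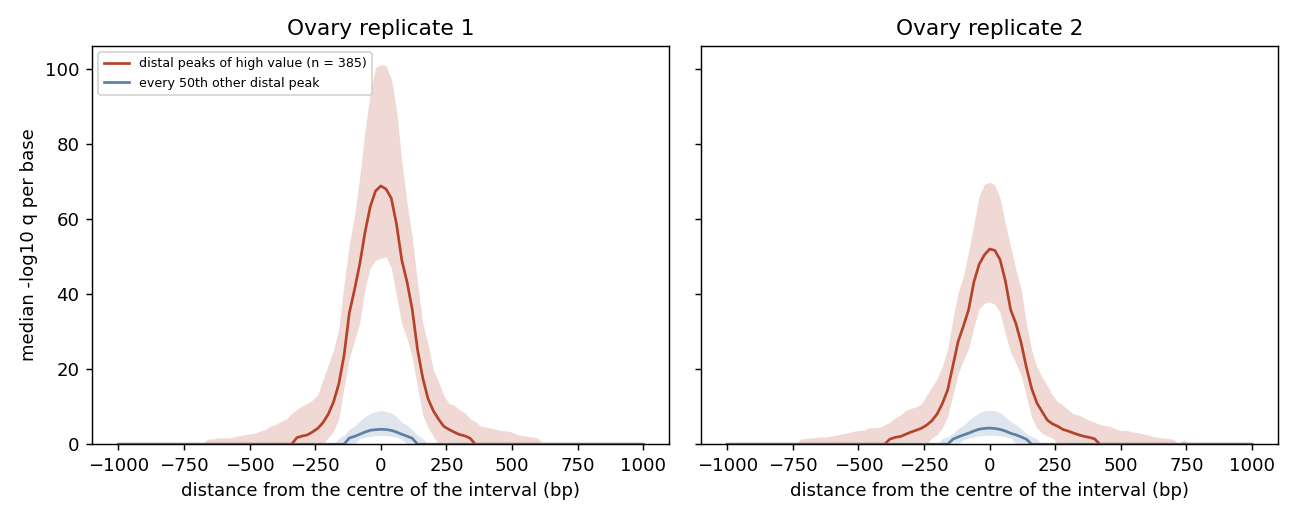
Median -log10 of the deposited per-base q-value against distance from the centre of the interval, for the 385 members and for every 50th other shared distal peak, with bands from the lower to the upper quartile and unlisted bases set to 0. The median of members was 68.8 at the centre in replicate 1 and 52.0 in replicate 2, and 42.1 and 31.9 at 100 bp.

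A group of members lay on tRNA genes. The distance rule used GENCODE starts, and tRNA genes were taken from the RefSeq annotation of the same build. Of the 385 members 26 (6.75%) overlapped a RefSeq tRNA gene, against a background of 119 of the 50985 other shared distal peaks (0.233%). RefSeq lists 403 tRNA genes on the chromosomes used, and 185 of them (45.9%) overlapped a peak in both libraries. The 26 genes were of 15 kinds by amino acid, so no single acceptor made up the group. They stood on many chromosomes, 8 of them on chromosome 11 and 4 on chromosome 7. This group was looked for after the highest members had been seen.

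The strongest was the tRNA-Asn gene n-TNgtt14 of chromosome 5, with 21.8 in replicate 1 and 11.7 in replicate 2. The tRNA-Arg gene n-TRccg1 printed above had 17.1 and 9.69, and the tRNA-Thr gene n-TTcgt5 had 15.6 and 8.17. The lowest was the tRNA-Arg gene n-TRtcg1 within the histone gene cluster of chromosome 13, near Hist1h4h, with 5.52 and 5.29. The medians over the 26 were 9.28 in replicate 1 and 6.58 in replicate 2, replicate 2 was the lower library at every one of them, and the median log2 ratio was -0.46. Some members stood close together: n-TEctc10 and n-TLcaa3, of tRNA-Glu and tRNA-Leu, lay within 0.580 kb on chromosome 11, with 8.25 and 7.47 at the first and 12.5 and 9.48 at the second.

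These sites were placed alike. The centre of the site lay upstream of the tRNA start in 25 of 26, at a median of -24.0 bp and between -76 and 12 bp. The B box consensus was found in 23 of the 26 genes. A footprint overlapped it by 1 bp or more in all 23 in replicate 1 and in 22 in replicate 2. This was not counted at tRNA genes outside the members, so it has no background share and nothing is read from it. The sites on tRNA genes had a median GC content of 56.0% and a CpG ratio of 0.880, with a median of 5.00 footprints in each library. None of the 26 had a copy of 50% or more of its bases elsewhere. The tRNA gene filled less than 50% of each interval, so this rule could not count a match of the gene alone to others of its family. Shorter matches elsewhere did occur, for example over 45.6% of the bases at n-TScga3 and 27.9% at n-TNgtt14.

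**Figure D5:**
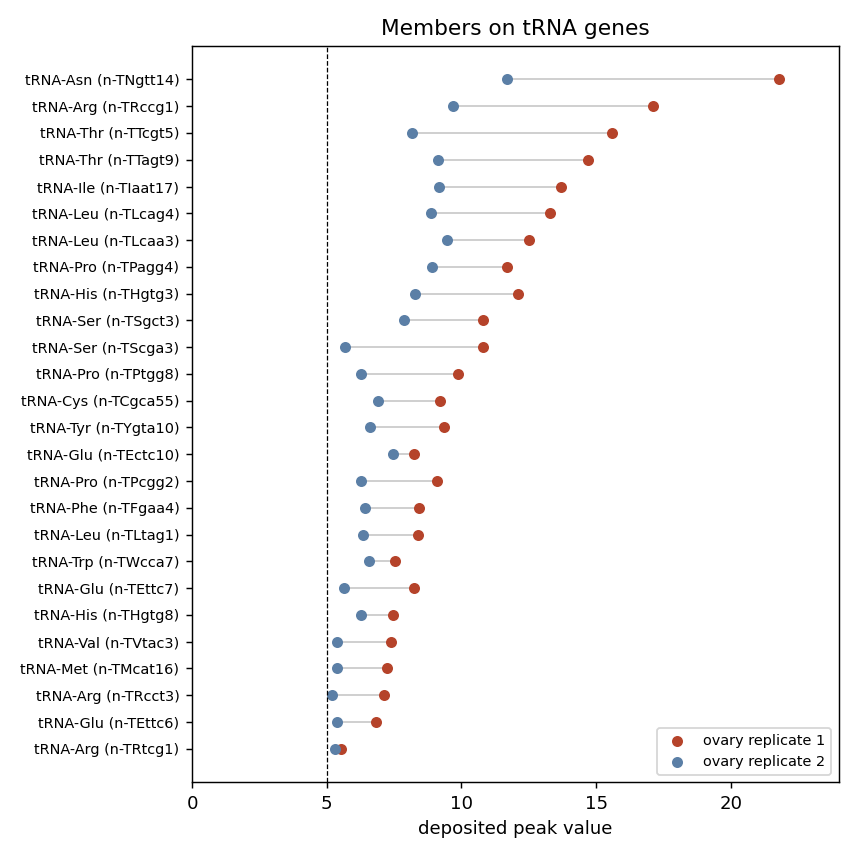
Deposited peak value at the 26 members that overlap a tRNA gene, 1 line per gene and 1 point per library, ordered by the mean, with a dashed line at the limit of 5. The tRNA-Asn gene n-TNgtt14 is highest with 21.8 in replicate 1 and 11.7 in replicate 2, and the points of replicate 2 lie between 5.21 and 11.7.

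More members were near a start that only RefSeq gives. A RefSeq transcript start lay within 1 kb of 72 members (18.7%), against a background of 2626 other shared distal peaks (5.15%). The nearest such start was that of a tRNA in 29 members, of an mRNA in 23, of a long noncoding RNA in 19 and of another transcript in 1. In the CpG-rich members 29.3% had a RefSeq start within 1 kb, and in the other members 8.25%. Distal here therefore means away from GENCODE starts. A GENCODE start lay between 1 and 2 kb from 71 members (18.4%) and from 10.5% of the other distal peaks. RefSeq regulatory features, counted together whether enhancers, promoters, silencers or other kinds, overlapped 7 members (1.82%). The background was 378 other shared distal peaks (0.741%). Among the 7 were sites near Irf2bp2, Atoh8, Bhlhe41 and Wee1. The site near Irf2bp2, 72.7 kb from its TSS, had 18.6 in replicate 1 and 9.26 in replicate 2.

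Members were more often intergenic and closer to genes than the other distal peaks. The centre was intergenic in 216 members (56.1%) and in 43.9% of the other distal peaks, and intronic in 124 (32.2%) and 48.6%. A UTR exon held 18 members (4.68% against 2.32%), an exon of a noncoding gene 15 (3.90% against 1.27%) and a coding exon 11 (2.86% against 3.24%). The median distance to the nearest TSS of a protein-coding gene was 9.45 kb in members, with quartiles of 3.28 and 24.7 kb, against 19.9 kb in the other distal peaks. A distance over 100 kb was found in 17 members (4.42%) and in 15.5% of the others. Chromosome 11, which is rich in genes, held 48 members (12.5%), against 7.27% of the other distal peaks, and chromosome X held 5 (1.30% against 2.24%).

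The 385 members were nearest to 354 protein-coding genes, 327 of which had a single member. Ptma had 4 members, and Kdm6b and Rps6ka1 had 3 each. The Ptma sites lay 39.1, 24.9, 22.4 and 1.33 kb upstream of its TSS, and 2 of the 4 held a CTCF consensus. Kdm6b codes for a demethylase of histone H3. Its intron held 1 site, with 9.75 in replicate 1 and 5.45 in replicate 2. The other 2 lay 3.99 and 4.48 kb upstream of the nearest GENCODE start, with 10.6 and 6.54 and with 9.64 and 5.19. RefSeq gives a Kdm6b start 50 bp from the centre of the intron site, and 479 and 10 bp from those of the upstream sites. Rps6ka1 codes for a kinase of the growth factor pathway, and its 3 sites, 23.0 to 47.5 kb away, had GC contents from 66.6% to 75.2%. Another 24 genes had 2 members each. Within 10 kb of another member stood 36 members, in 17 groups, the largest of 3.

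Members were counted by their nearest gene in lists of ovarian cell types, against a background of 0.749% of all shared distal peaks that were members. No member was nearest to a gene of the granulosa, theca, luteal or oocyte lists, which together held 65 genes and 323 shared distal peaks. All lists together had 10 members among 1023 shared distal peaks (0.978%). With so few peaks in a list, a count of 0 lies near the background and nothing is read from it. The closest to the limit among those were a peak 1.19 kb from the TSS of Nr2f2, with 11.6 in replicate 1 and 4.67 in replicate 2, and a peak near Esr2, the gene of estrogen receptor beta, with 7.86 and 4.5. A peak 9.97 kb from Foxl2, the granulosa regulator, had 6.49 and 3.73. Of the list of gonadal regulators, Runx1 had a member in an intron, 1.48 kb from the nearest TSS, with 9.43 in replicate 1 and 5.13 in replicate 2. Emx2, needed for the gonad to form, had one 40.1 kb upstream, with 7.13 and 5.58 and a CTCF consensus. Of the genes that respond to luteinizing hormone, Cebpb had one 3.58 kb upstream, with 10.2 and 7.5. Krt8, a keratin gene of the surface epithelium list, had one at 5.69 and 5.06.

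The list of immediate early genes, which are switched on within minutes of a stimulus, had the most members. Of its 12 genes 5 had 6 members, among 81 shared distal peaks (7.41%, against the background of 0.749%). The list was written with earlier results of these data known. Fos, the AP-1 subunit, had a site 18.5 kb upstream with 13.4 in replicate 1 and 6.98 in replicate 2, and one 11.3 kb downstream with 15.2 and 6.22. The first held 8 footprints in replicate 1 and 11 in replicate 2 and overlapped a RefSeq enhancer. Fosb, another AP-1 subunit, had a site 10.1 kb upstream, printed above, with 11.4 and 5.54, also at a RefSeq enhancer. Ier2 had one 1.23 kb upstream with 12.3 and 6.28, and Junb one 1.34 kb upstream with 8.79 and 5.07. Egr1, a zinc finger factor, had one 26.3 kb downstream with 13.4 and 6.13. All 6 held SP/KLF letters, and none held the AP-1 or CRE letters. The lists of stroma, smooth muscle and pericytes, endothelium, macrophages and myeloid cells, lymphocytes, cholesterol synthesis, hepatocytes, skeletal muscle and neurons had no member.

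Some members lay at genes outside the lists, and these were picked after their values had been seen. Several of them lay not far over the limit of 1 kb from a start. Per1, a clock gene that represses its own transcription, had a site in an intron, 1.82 kb from its nearest TSS. That site had 20.3 in replicate 1 and 9.32 in replicate 2 and CRE letters. Nr1d1, the clock repressor REV-ERB alpha, had an intronic site at 1.32 kb with 19.0 and 9.55 and an intergenic one at 8.19 kb with 12.7 and 5.78. Mxi1 and Mnt code for partners of MAX that oppose MYC. The Mxi1 intron site, printed above with its CRE letters, lay 1.27 kb from the TSS and had 20.6 and 12.2. The higher of the 2 Mnt intron sites lay at 1.37 kb and had 19.8 and 9.22.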

How the data were processed

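DNase-seq of whole ovary from 2 B6CASTF1/J females of 36 days was analysed, 1 library per animal. The authors deposited, for each library and on mm10 per the labels, a longer and a shorter peak list with a signal value per peak, per-base q-values listed up to 0.05, and footprints with a score that is the same in every line, of which only positions were used. The text deposited with the files traces each library's files to 1 set of alignments, a different one for each library. The sources used here name no aligner, caller or version and no scaling of the signal, so read depth is unknown.

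Peaks of the longer lists were paired one-to-one by the longest overlap, of at least 1 bp (Python 3.11.15, numpy 2.4.6, pandas 2.3.3). Starts and places came from GENCODE M21, and tRNA genes, regulatory features and further starts from RefSeq, both on GRCm38. Sites were assigned to the nearest protein-coding TSS. Sequence, motifs and composition were read from the union of both libraries' peaks. Copies were sought with BLAST 2.17.0 against the assembly, at 90% identity over 80% of the length. Pairing and motif search were checked on simulated data. Sites were named by a fixed rule: the highest and lowest members, those just outside the limit, those of the gene lists, the genes nearest to most members, and the members with the most footprints. The sites named by match to another member, motif, tRNA gene or RefSeq regulatory feature were picked after their values were seen. So were the genes outside the lists. The members, lists and motifs were chosen with earlier results of these data known. With 1 group of 2 animals and members chosen by their values, no test was made. Alternatives changed the start set, the value, width and overlap limits, the peak list and the library used.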

Additional observations from a re-analysis of the deposited data

How the results depend on the processing

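Of 103 values recomputed under alternatives, 91 stayed within 1.5 times the number of members or within the 95% interval of the share or median. The cause of the other 12 was not tested beyond what each alternative does. A reversal could be labelled only for the median log2 ratio, and none was. Many alternatives kept most of the same sites, so their values could move little. The 385 members became 81 with a value of 7.5 or more and 795 with 4 or more, and between 399 and 1570 when 1 library alone was used. The CTCF share became 9.88% at 7.5 and 25.5% at 4, and lay between 18% and 26.2% with 1 library alone. The median GC content became 63.3% and 58.9%, and the median log2 ratio -0.85 and -0.71, at the same limits of 7.5 and 4. The median distance to the nearest coding TSS became 12.5 kb with centres over 2 kb from every start, which removes the nearest sites. Alternatives added after seeing the data left out members with a copy, on a tRNA gene or near a RefSeq start. With the 24 members with a copy left out, the share in sequence with many copies was 0, as it must be, and the other values stayed. No paired analysis was possible because there is 1 group. The unknown scaling and depth limit what a value of 5 means, 2 animals limit every statement on spread, and copies absent from the assembly were not counted.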
